A study of Homo sapiens with 2 samples.

Results

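NEAT1 and MALAT1 are long noncoding RNAs of the nucleus whose genes lie near each other on the plus strand of chromosome 11. RNA bound by TARBP2 was examined over both. The members were the plus-strand regions that overlap NEAT1 (hg19, chromosome 11 from 65190245 to 65213011, 22767 nt) or MALAT1 (65265233 to 65273940, 8708 nt). There were 11 such regions, 5 in NEAT1 and 6 in MALAT1, among 23412 regions in all and 9157 on the plus strand of chromosomes 1 to 22 and X. All 11 lay wholly inside their gene.

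The cells were MDA-LM2, a lung-metastatic derivative of a human breast cancer line. A transiently transfected vector supplied myc-tagged TARBP2, and 48 hours later UV light fixed RNA to bound protein, which was pulled down with an anti-myc antibody so that the attached RNA could be sequenced (HITS-CLIP). There was 1 group of 2 replicates, both with the vector. The processed data were 1 list of regions for the group, with the same score for each region, so values below carry no replicate error and the depth behind a region is unknown. The vector adds tagged protein to that which the cells make themselves. No untagged control or total RNA library was used here, so more binding and more of the RNA cannot be told apart for either gene.

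TARBP2 binds double-stranded RNA and is a partner of Dicer, the nuclease that cuts microRNA precursors. NEAT1 is made as a short and a long transcript from the same start, and the long one is the scaffold of paraspeckles, nuclear bodies that hold RNA-binding proteins. MALAT1 gathers in nuclear speckles, bodies rich in splicing factors. The ends of MALAT1 and of long NEAT1 are not made by ordinary polyadenylation: RNase P cuts before a tRNA-like element, which leaves a small tRNA-like RNA called mascRNA in MALAT1 and menRNA in NEAT1. Both RNAs are abundant in many cell types.

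Annotated elements were placed by distance from the first base of each RNA. GENCODE 29, which is on GRCh38, gives NEAT1 22767 nt and the single-exon transcript MALAT1-202 8708 nt, the same as the lengths on hg19, and the starts are 74988 nt apart in both builds. No genome coordinate was converted, and each placement rests on these equal lengths. Positions below count from 1 at the first base of the gene as given above. Sequences are whole GENCODE 29 records, and capitals mark bases that fall inside a TARBP2-bound region. They are shown because they are the annotated elements that the regions of NEAT1 and MALAT1 touch, and the tRNA-like element that NEAT1 regions do not touch.
RF01955 in NEAT1: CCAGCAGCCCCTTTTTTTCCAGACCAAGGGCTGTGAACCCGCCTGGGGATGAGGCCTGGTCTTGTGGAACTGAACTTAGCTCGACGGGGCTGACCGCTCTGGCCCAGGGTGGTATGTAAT
RF01684 in MALAT1: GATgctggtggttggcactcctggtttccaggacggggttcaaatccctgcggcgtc
RF01684 in NEAT1: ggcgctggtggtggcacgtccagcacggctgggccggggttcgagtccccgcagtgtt

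RF01955 is a conserved element near the start of NEAT1, and RF01684 is the family of mascRNA and menRNA. The mascRNA and menRNA records were identical in 40 of 59 aligned columns (67.8%).

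The bound regions of NEAT1 fell at its 5′ end and toward its 3′ end, with a long uncovered middle. The first region was 543 nt long (65190380 to 65190922) and covered positions 136 to 678. The next began 16118 nt farther on, so this 1 stretch without a region, from position 679 to 16796, took up 70.8% of the RNA. The other 4 regions lay within 3357 nt, from position 16797 to 20153. They covered 49.4% of that stretch and held 75.3% of all covered bases of NEAT1.

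Within the later group of NEAT1 the regions were 531 nt (65207041 to 65207571), 252 nt (65207873 to 65208124), 250 nt (65208855 to 65209104) and 625 nt (65209773 to 65210397). Gaps of 301, 730 and 668 nt separated them. The longest and the next longest of the 4 were thus at the outer edges of the group, with the 2 short ones between them. After the last region, 2614 nt up to the 3′ end of the RNA held no region. In all, 2201 nt of NEAT1 were covered, or 9.67%.

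The short and the long transcript of NEAT1 share only the first part of the gene. In GENCODE 29 the 7 short NEAT1 transcripts all ended by position 3740, and the long one, NEAT1-202, ran as a single exon from position 25 to 22767. The shared stretch held 1 region and was covered over 14.5% of its 3740 nt. The remaining 19027 nt, which are in the long transcript alone, held 4 regions and were covered over 8.71%. The stretch of the long transcript alone held most of the NEAT1 regions, but it is also most of the gene, 19027 of 22767 nt. Per base the shared stretch was covered more, which rests on its 1 region of 543 nt. Neither difference was tested. Reads from the shared stretch cannot be assigned to either transcript. The first region overlapped exons of 6 of the 8 annotated transcripts.

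**Figure D1:**
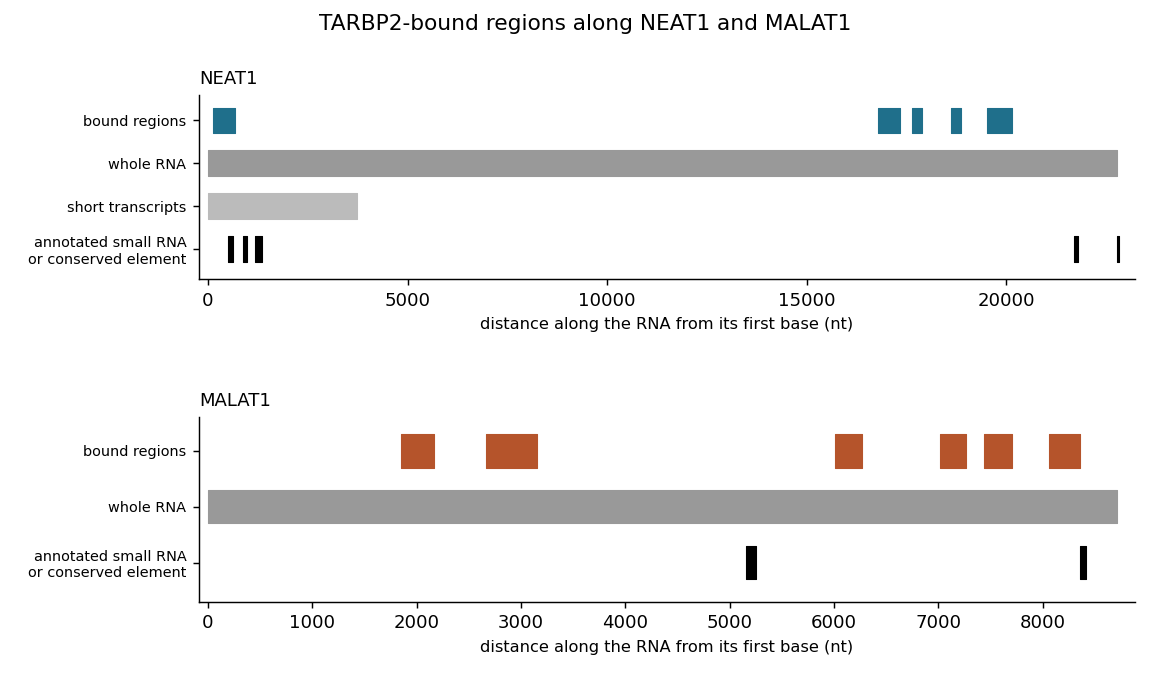
Positions of TARBP2-bound regions (coloured blocks) along NEAT1 and MALAT1, in nt from the first base of each RNA (horizontal axes, each panel to its own scale); grey bars are the whole RNA and the stretch that holds the short NEAT1 transcripts, and black blocks are annotated elements. NEAT1 has 1 region at the start and 4 from position 16797 to 20153, and MALAT1 has 2 regions from position 1847 to 3147 and 4 from position 6005 to 8358.

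Among the small elements annotated in NEAT1, 1 lay in a bound region. RF01955 spans positions 500 to 619 and was wholly inside the first region, 120 of 120 nt. The other conserved elements of the 5′ part, RF01956 (865 to 969) and RF01957 (1187 to 1345), lay 186 and 508 nt past the end of that region. MIR612, an annotated microRNA gene within the long transcript (21685 to 21784), was not covered, and the nearest region ended 1531 nt before it. The menRNA element, which starts at the base after the annotated 3′ end, lay 2614 nt past the last region.

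Predicted base pairing was computed for all 7 annotated elements of both RNAs. In minimum free energy structures from RNAfold, RF01955 had 60% of its bases paired (-49.3 kcal/mol over 120 nt). The uncovered RF01957 had 65.4% paired (-55.5 kcal/mol over 159 nt), and the uncovered RF01956 had 22.9% (-7.9 kcal/mol over 105 nt). Of the other elements of NEAT1, MIR612 had 72% of its bases paired and menRNA 72.4%, both uncovered. In MALAT1, mascRNA, with 3 nt in a region, had 73.7% paired and the uncovered RF01871 35.8%. Uncovered elements thus lay both above and below RF01955. Each value is a single prediction and carries no measure of error.

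MALAT1 was covered more densely and more evenly. Its 6 regions covered 1875 nt, or 21.5% of its 8708 nt, against 9.67% in NEAT1. This was 0.689 regions per kb against 0.22 in NEAT1, a 3.14-fold higher number per kb and a 2.23-fold higher covered share. With 1 list and no replicate values, no test of this difference can be made.

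The MALAT1 regions came in an earlier pair and a later group. The first 1846 nt held no region. The earlier pair was 316 nt (65267079 to 65267394, positions 1847 to 2162) and 480 nt (65267900 to 65268379, positions 2668 to 3147), with 505 nt between them. An uncovered middle of 2857 nt followed, from position 3148 to 6004, which is 32.8% of the RNA. The later 4 regions fell between positions 6005 and 8358 and covered 45.8% of that stretch.

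The later group held 57.5% of the covered bases of MALAT1. Its members were 260 nt (65271237 to 65271496), 250 nt (65272245 to 65272494), 265 nt (65272671 to 65272935) and 304 nt (65273287 to 65273590). Their gaps were 748, 176 and 351 nt. The gap of 176 nt, between the second and the third of them, was the smallest between neighbouring regions in either RNA, and the smallest same-strand gap in the whole list was 101 nt.

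The last MALAT1 region ended close to the start of mascRNA. It covered positions 8055 to 8358, and the mascRNA element spans positions 8356 to 8412, so they shared 3 nt, the bases in capitals above. The remaining 54 nt of mascRNA and everything beyond it up to position 8708 held no region. By the RNase P cut described above, mature MALAT1 ends before mascRNA, so these bases lie past its end. The edge of a listed region is not the edge of a binding site, since nothing in the sources used here states how region ends were set. The other annotated element of MALAT1, RF01871 (positions 5153 to 5247), lay in the uncovered middle, 757 nt from the nearest region.

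All 6 MALAT1 regions were exonic in MALAT1-202, which has 1 exon. GENCODE 29 lists 17 MALAT1 transcripts, most of them short and spliced. The last region overlapped an exon of MALAT1-202 alone and lay within introns of 5 of the others. The third and the fourth regions each overlapped exons of 5 transcripts.

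**Figure D2:**
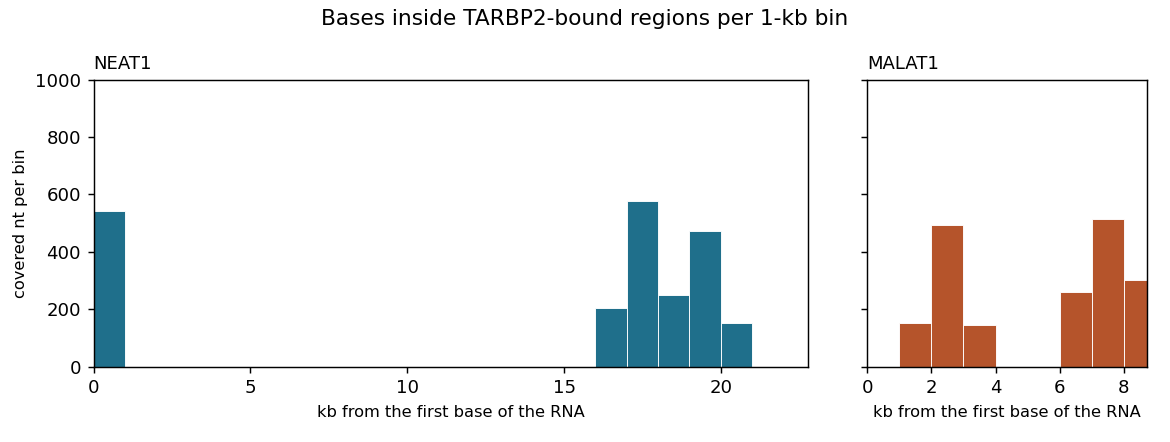
Number of bases inside TARBP2-bound regions (vertical axis, nt) in successive 1-kb bins along NEAT1 and MALAT1 (horizontal axis, kb from the first base; the last bin of each RNA is shorter). In NEAT1 6 of 23 bins held covered bases, with a maximum of 579 nt, and in MALAT1 6 of 9 did, with a maximum of 515 nt.

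With each RNA, as bounded here, divided into 4 parts of equal length, the part at the 3′ end was covered most in both. For NEAT1 the covered shares of the 4 parts, from 5′ to 3′, were 9.54%, 0%, 4.9% and 24.2%. For MALAT1 they were 14.5%, 22%, 11.9% and 37.6%. The least covered part of MALAT1 was thus above 3 of the 4 parts of NEAT1. The longest uncovered stretch lay in the middle of both RNAs and was 5.64 times as long in NEAT1 as in MALAT1.

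To set these shares beside the rest of the genome, the plus strand of chromosomes 1 to 22 and X was divided into successive windows as long as each gene. Of 133020 windows of the length of NEAT1, 4.82% held any region and 0.133% (177 windows) held as many covered bases as NEAT1. Among the 6407 windows with a region, the share was 2.76% and the median was 252 covered nt. Of 347805 windows of the length of MALAT1, 2.14% held any region and 0.0474% (165 windows) held as many covered bases as MALAT1. Among the 7453 with a region, 2.21% did.

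By number of regions, MALAT1 stood higher in this order than NEAT1. Windows with at least 6 regions (49) made up 0.0141% of all windows of MALAT1 length and 0.657% of those that held any region. Windows with at least 5 (198) made up 0.149% of all windows of NEAT1 length and 3.09% of those that held any. The windows are not genes and were not chosen for transcription, so these shares describe where the 2 RNAs fall in the list and are not chance levels.

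**Figure D3:**
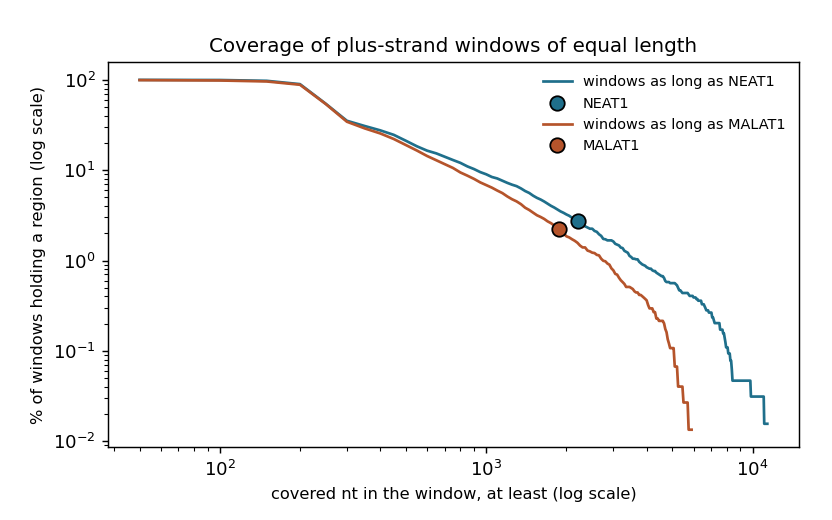
Share of plus-strand windows holding at least 1 region (vertical axis, percent, log scale) that have at least the given number of covered bases (horizontal axis, nt, log scale), for windows of the length of NEAT1 and of MALAT1; dots mark the 2 genes. NEAT1 (2201 nt) lies where 2.76% of windows have as much, and MALAT1 (1875 nt) where 2.21% do.

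The regions of the 2 RNAs were of ordinary to somewhat large size. The shortest had 250 nt, the median one 304 nt and the longest 625 nt. All plus-strand regions together had a median length of 255 nt, with an interquartile range of 243 to 367 nt. NEAT1 held the longer ones, with a median of 531 nt against 284 nt in MALAT1. The longest, of 625 nt, was matched or exceeded by 7.67% of plus-strand regions. Each RNA had 1 region of exactly 250 nt. None of the 11 had the commonest single length of the list, which 8.21% of plus-strand regions had.

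**Figure D4:**
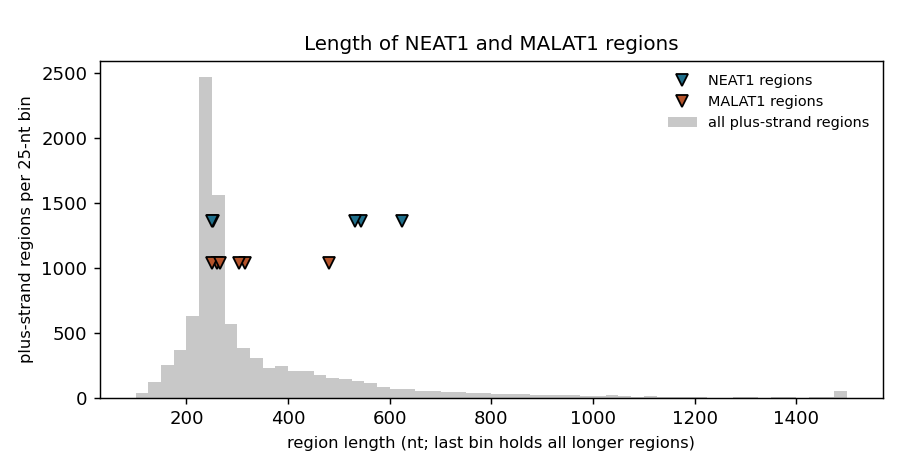
Lengths of the 5 NEAT1 and 6 MALAT1 regions (triangles, whose height on the page has no meaning) over the number of plus-strand regions per 25-nt bin of length (grey bars; the last bin holds all longer regions). NEAT1 has 3 regions at 531 to 625 nt and 2 near 250 nt, and the MALAT1 regions run from 250 to 480 nt.

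The names of the regions carry numbers that rise along a strand, and some numbers are not among the listed regions. From the first to the last NEAT1 region there were 9 numbers, of which 5 were listed, and in MALAT1 there were 10, of which 6 were listed. On the plus strand of chromosome 11 as a whole, 19.5% of 2540 numbers were listed. Runs of numbers that begin and end with a listed one are richer, however. Of 1667 plus-strand runs of 9 numbers of this kind, 34.3% had at least 5 listed, and of 1639 runs of 10 numbers, 23.4% had at least 6. Nothing in the sources used here says what the unlisted numbers were, 4 in each RNA. Between the first and the second NEAT1 regions 3 numbers were unlisted, so the long uncovered stretch is one without a listed region and was not necessarily without reads.

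No minus-strand region overlapped NEAT1 or MALAT1. An empty stretch of this length is the usual case on that strand: 7.5% of minus-strand windows of the length of NEAT1 and 3.36% of those of the length of MALAT1 held any region. In the list as a whole, 60.9% of regions were on the minus strand. The 11 regions lie in only 2 genes of the plus strand, so they are not independent draws from the list. They therefore set no limit on a minus-strand share, and depletion of that strand was not tested. RefSeq lists TALAM1, an antisense RNA gene, on the MALAT1 locus, and no region was listed on its strand there. Within 20 kb of either gene, 1 minus-strand region was found, of 281 nt (65220889 to 65221169), 7.88 kb past the 3′ end of NEAT1.

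Beside the genes on their own strand, the regions lay on 1 side. Within 20 kb there were 2, both upstream of NEAT1, of 1059 nt (65172617 to 65173675) and 549 nt (65177926 to 65178474). They ended 16.6 and 11.8 kb before NEAT1 starts. In GENCODE 29 the next plus-strand gene upstream, FRMD8, which codes for a FERM-domain protein, reaches from 36.2 to 9.25 kb before NEAT1. By distance both regions fall in that span, if the stretch upstream of NEAT1 is equally long in both builds, which was not checked. The 2 regions covered 8.04% of the 20 kb before NEAT1, close to the 9.67% of NEAT1 itself. Of all plus-strand windows of 20 kb, 0.191% had as many covered bases as this flank. The 20 kb after NEAT1, before MALAT1 and after MALAT1 held no plus-strand region, and only 4.33% of all plus-strand windows of 20 kb held any.

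Between the genes, 0.561% of 52.2 kb was covered on the plus strand, by a single region of 293 nt (65234921 to 65235213), 21.9 kb past NEAT1. In GENCODE 29 a pseudogene, AP000769.1, spans 9.72 to 21.2 kb past NEAT1, and this region lay just beyond that distance. After MALAT1 the next plus-strand region came 125 kb farther on, at 65399071 to 65399279.

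**Figure D5:**
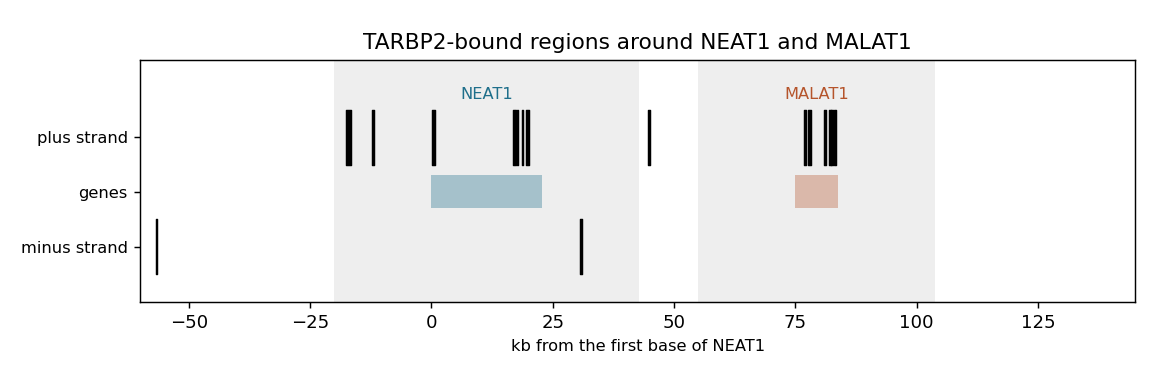
TARBP2-bound regions (black bars, drawn with an outline that makes short ones wider than scale) on the plus and minus strands around NEAT1 and MALAT1 (coloured boxes), in kb from the first base of NEAT1 (horizontal axis); grey shading is each gene with 20 kb on both sides. Beside the genes within the shading, the plus strand has 2 regions upstream of NEAT1 and none beside MALAT1, and the minus strand has 1 region after NEAT1. Outside the shading lie 1 plus-strand region between the genes and 1 minus-strand region 56.5 kb before NEAT1.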

How the data were processed

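RNA co-purified with myc-tagged TARBP2 was measured in 2 samples of 1 group. The submitters' processing notes name Bowtie and the build hg19. Not given in the sources used here are the region caller, its filters, how both replicates entered the list and how multiply aligned reads were handled. The authors deposited 1 list of stranded regions, whose score was 1 throughout and carries no height. Depth per sample is unknown. Starts were 0-based and are printed 1-based.

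The gene bounds, the members and the comparisons were chosen with earlier results of these data known. A region was a member if it overlapped a gene on the plus strand by at least 1 nt, and all members are described. Covered shares count each base once. Windows were tiled from the first base of each chromosome to its last region. No test across features or samples was made. Planned counts for genes of paraspeckle proteins and other noncoding RNAs were not run, since an annotation of hg19 was not used here. GENCODE 29 (GRCh38) gave transcripts and elements by distance from the RNA's first base. The alternatives varied overlap, joining, trimming, length, windows and flanks. The counting of windows was tested on simulated data. Structures were predicted with RNAfold 2.7.2, and the rest used Python 3.11.15 with pandas 2.3.3, numpy 2.4.6 and scipy 1.17.1.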

Additional observations from a re-analysis of the deposited data

How the results depend on the processing

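Of 30 alternative settings, 20 kept a count within 1.5 times or a share within its 95% exact binomial interval. That interval took each base or window as a separate draw, although covered bases come in blocks. It only sorts the settings and measures no error. Many of the 20 could not have moved. All 11 regions lay wholly inside their gene, and none had the commonest length or exceeded 1000 nt. Stricter overlap, or leaving out such lengths, therefore removed none of them. Leaving out the commonest length likewise removed no flank region. The regions of each RNA numbered 4 when neighbours within 500 nt were joined. The covered share of NEAT1 was 7.47% with 50 nt trimmed from both ends of each region and 11% with joining, and that of MALAT1 14.6% and 27.6%, by construction. MALAT1 was the higher in each. Windows with as many covered bases as NEAT1 made up 2.76% of those with a region and 0.182% over both strands. For MALAT1 the shares were 2.21% and 0.0681%, and 0.0141% by number of regions. Within 10 kb the flanks held 0 plus-strand regions in place of 2. No paired analysis was possible because the single list of the group has no values per replicate, and for the same reason no replicate could be left out. Depth is unknown and could not be used to weigh regions.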
